A study of Mus musculus with 2 samples.

Results

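The expression of 8 genes of prostaglandin synthesis and reception was examined in single cells of optic nerves from Nf1-OPG mice. The genes were *Ptgds*, *Hpgds*, *Ptgs1*, *Ptgs2*, *Ptges*, *Ptger2*, *Ptger4* and *Ptgdr2*, taken by symbol from the 32285 genes in the count matrices, and all 8 were present. Nf1-OPG mice carry a germline *Nf1* mutation with Cre-driven *Nf1* loss under a GFAP promoter, and form low-grade gliomas of the optic pathway. Both libraries, C-ON and FMC_new, were labelled as Nf1-OPG optic nerve at 12 weeks of age, with nerves of 10 mice pooled for dissociation and no treatment listed. C-ON carries the word control in its title but has the same genotype label as FMC_new, so both were treated as libraries of 1 condition. The protocol in the labels also covers meningeal dura, sorted for live cells. Pituitary endocrine-like cells, a type from outside the optic nerve, numbered 19 in C-ON and 1724 in FMC_new. How such cells entered the libraries was not tested. With 1 condition, no comparison between conditions and no test between groups was possible, and each value is given for both libraries.

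Prostaglandins are made from arachidonic acid that phospholipases free from membranes. Cyclooxygenases, encoded by *Ptgs1* and *Ptgs2*, convert it to prostaglandin H2, from which terminal synthases make prostaglandin D2 (*Ptgds* and *Hpgds*) or prostaglandin E2 (*Ptges*). These mediators act on receptors of neighbouring cells and are then taken up and inactivated, and in the nervous system *Ptgds* is best known from oligodendrocytes and the leptomeninges.

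C-ON held 10845 barcodes with 85101211 UMIs and FMC_new 21341 barcodes with 129113325 UMIs, of which 8834 and 16818 cells were kept, with medians of 6810.5 and 4676 UMIs. The makeup of the libraries differed, with oligodendrocyte-like cells forming 60.6% of C-ON and 12.3% of FMC_new. Pituitary endocrine-like cells were 19 of those kept in C-ON but 1724 of those in FMC_new. The libraries shared 188 barcodes among kept cells. Transcripts of the myelin gene *Mbp* were found in 88.0% to 100% of the cells of each class compared, also where the class should lack it. Clusters were named from marker genes, and 14 classes with at least 20 cells in each library were compared. All markers of a class were detected in it in both libraries, except in neuron-like cells (5 and 4 of 7). Fewer met the naming rule (in 20% of cells and at 2 times the mean of clusters) in some classes. For example, 5 of 8 did in border macrophage-like, 6 of 8 in stromal-like and 3 of 7 in neuron-like cells. No mast cell, endothelial or mural cluster was obtained.

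Levels are CPM, the UMIs of a gene summed over the cells of a class in a library and scaled to the total UMIs of those cells (counts per 1e6 UMIs), with exact 95% Poisson intervals that cover counting error only. Of the 8 genes, 7 had at least 50 UMIs in each library. *Ptgdr2* had 4 and 5 UMIs. The class with the highest level was the same in both libraries for 6 of the 7 genes, against 58.7% of all 14589 genes with as many UMIs. In 4 of the 7, *Ptgs1*, *Hpgds*, *Ptges* and *Ptger2*, this class also stood above the next one in both libraries without overlap of the Poisson intervals, against 20.2% of all genes. This count was 2 (*Ptgds* and *Ptgs1*) with each cell thinned to 1000 UMIs, and 7 at a cluster resolution of 0.4, where 12 classes were compared. The limit of 50 UMIs was kept after thinning and left out genes that fell below it, so the 2 need not be out of 7. The share of all genes was computed for neither setting.

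**Figure D1:**
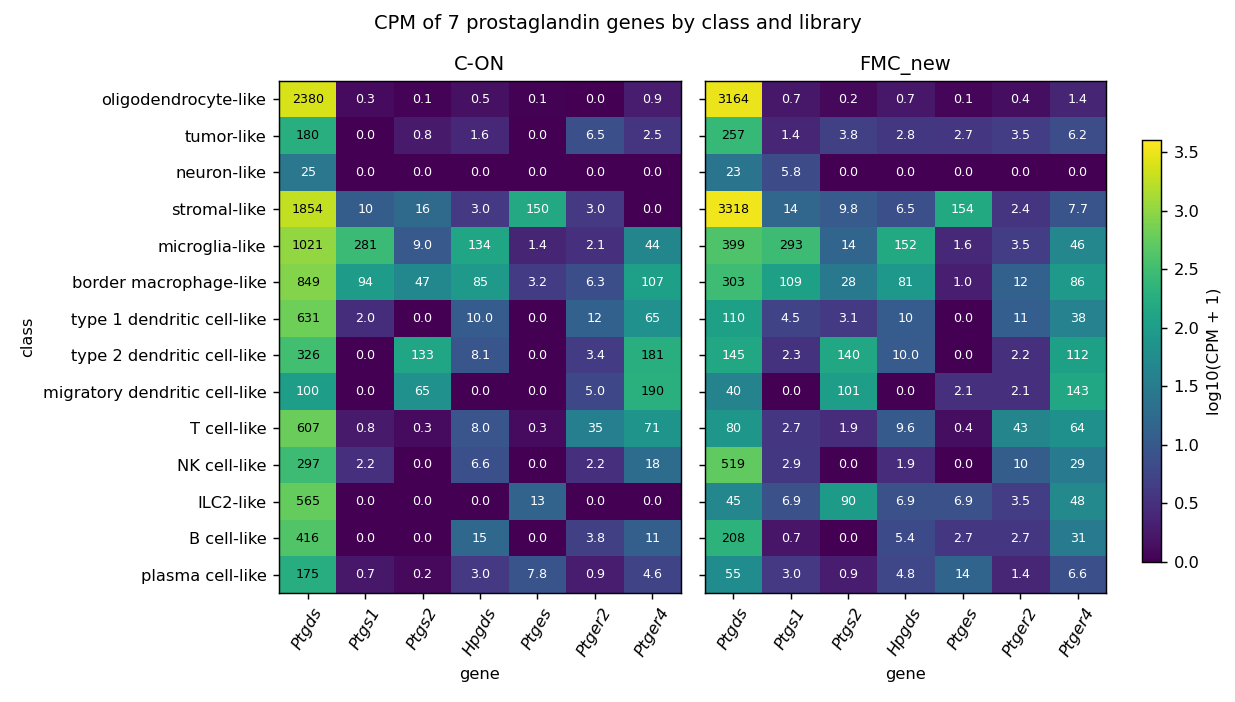
CPM of 7 prostaglandin genes (columns) in 14 classes (rows) of C-ON (left) and FMC_new (right), with colour on the scale log10(CPM + 1) and the CPM printed in each cell. *Ptgs1* and *Hpgds* are highest in microglia-like cells, *Ptges* in stromal-like cells, *Ptgs2* in type 2 dendritic cell-like cells and *Ptger2* in T cell-like cells in both libraries.

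The upstream sequences of *Ptgs1* and *Hpgds* are shown because both genes were highest in microglia-like cells and second in border macrophage-like cells. The 250 bases before the RefSeq start of each gene (GRCm38.p6, strand of the gene, 5′ to 3′) are printed, with the letters GAGGAAGT in capitals, a core of the kind bound by the myeloid factor PU.1.
Ptgs1 (chr2:36230176-36230425, plus strand): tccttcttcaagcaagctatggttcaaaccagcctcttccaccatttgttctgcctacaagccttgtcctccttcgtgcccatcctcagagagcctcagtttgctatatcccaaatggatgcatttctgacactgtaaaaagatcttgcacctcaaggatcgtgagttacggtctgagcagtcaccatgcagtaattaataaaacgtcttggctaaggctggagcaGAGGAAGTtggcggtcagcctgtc
Hpgds (chr6:65144731-65144980, minus strand): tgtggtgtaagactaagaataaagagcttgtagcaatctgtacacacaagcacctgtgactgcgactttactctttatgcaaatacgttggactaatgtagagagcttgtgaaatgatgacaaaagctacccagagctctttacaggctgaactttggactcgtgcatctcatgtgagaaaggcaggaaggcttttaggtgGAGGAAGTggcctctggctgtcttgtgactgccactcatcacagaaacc

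The motif lay 24 to 17 bases before the RefSeq start of *Ptgs1* and 49 to 42 bases before that of *Hpgds*. In GENCODE, *Hpgds* starts further upstream, at chr6:65144908, so part of its stretch, with the motif, lies inside the annotated gene. The stretches searched for *Ptgds* and *Ptges* lie wholly inside their GENCODE genes. Searched on both strands, the motif was present in 2.44% of 32851 RefSeq promoters of the same length, and in none of the other 6 genes. It was chosen after both sequences had been read. Of the 5 other motifs searched, TGACGT (6.47% of promoters), CACGTG (6.02%) and TATAAA (12.4%) were in none of the 8 sequences. TGANTCA (6.75%) was in that of *Ptgds*, and CCAAT (33.8%) was in those of *Ptger2*, *Ptger4* and *Ptgdr2*. A match of letters is not a binding site.

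*Ptgds* (GRCm38, as for all genes here, chr2:25466709-25470046, minus strand), which encodes lipocalin-type prostaglandin D2 synthase, was highest in oligodendrocyte-like and stromal-like cells. In oligodendrocyte-like cells its level was 2380 CPM (95% interval 2366 to 2395) in C-ON and 3164 CPM (3138 to 3191) in FMC_new, with a mean of 2772 ± 554 (SD, n = 2). In stromal-like cells, which carried *Dcn*, *Ogn* and *Mgp*, it was 1854 CPM (1753 to 1960) in C-ON and 3318 CPM (3247 to 3391) in FMC_new. The order of these classes thus turned between the libraries, each time without overlap of the intervals. Oligodendrocyte-like cells held 89.4% of all *Ptgds* UMIs of C-ON and 67.3% of those of FMC_new.

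All other classes held *Ptgds* transcripts as well. T cell-like cells, which should lack the gene, had 607 CPM in C-ON and 79.9 CPM in FMC_new. After thinning to 1000 UMIs, 39.2% of oligodendrocyte-like cells of C-ON and 45.3% of those of FMC_new had a *Ptgds* UMI, against 11.8% and 6.52% of T cell-like cells. Before thinning these shares were 65.7% and 70.3% against 25.8% and 17.5%, with median depths of 8062 and 7837 UMIs against 3230.5 and 3128 UMIs. The oligodendrocyte-like share therefore lay above the T cell-like share in both libraries. Microglia-like cells had 1021 and 399 CPM and border macrophage-like cells 849 and 303 CPM, higher in C-ON, whereas NK cell-like cells had 297 and 519 CPM. Tumor-like cells, named from markers of oligodendrocyte precursors such as *Pdgfra* and *Vcan*, had 180 and 257 CPM of *Ptgds*. The pituitary hormone gene *Gh* had 5166 CPM in T cell-like and 9080 CPM in stromal-like cells of FMC_new, against 0 CPM in both in C-ON. The part of free RNA in the *Ptgds* of these classes was not tested.

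*Ptgds* was spread unevenly over the cells of a class. In stromal-like cells the median was 1 UMI per cell in both libraries, while the highest cell of C-ON had 825 UMIs and that of FMC_new 1410 UMIs. The 10% of stromal-like cells with most UMIs held 88.0% and 94.1% of the class's *Ptgds* UMIs, against 69.1% and 65.5% in oligodendrocyte-like cells. In T cell-like cells that share was 93.3% and 73.6%, with a median of 0 UMIs and single cells of up to 354 and 50 UMIs. The high-*Ptgds* stromal cells were described further with 4 solute carrier genes of the leptomeninges (*Slc6a13*, *Slc6a20a*, *Slc13a4* and *Slc22a6*), chosen after the values had been seen. The 5 stromal-like cells of C-ON with a UMI of a carrier had 51216 CPM of *Ptgds*, and the other 100 had 611 CPM. Of the 849 *Ptgds* UMIs of these 5 cells, 825 were in 1 cell, so the value of C-ON rests on that cell. In FMC_new, 36 such cells had 26548 CPM and the other 466 had 962 CPM. Stromal-like cells without a carrier UMI held 402 of the 1251 *Ptgds* UMIs of the class in C-ON and 2145 of 8153 in FMC_new. Without these cells, oligodendrocyte-like cells had the highest *Ptgds* level in both libraries.

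Within oligodendrocyte-like cells, *Ptgds* differed over the 5 clusters with at least 20 cells in each library, which had been made without the prostaglandin genes among the variable features. In cluster 0, high in *Hopx* and *Nkx2-9*, its level was 199 CPM in C-ON and 382 CPM in FMC_new. Cluster 12, high in the glutamate receptor gene *Grm3*, had 1100 and 2048 CPM. Cluster 1, high in *Serpina3n*, *C4b* and interferon-induced *Iigp1*, had 1572 and 2155 CPM. *Klk6*, of the same marker list as *Hopx* and *Nkx2-9*, was higher in cluster 1 (5206 and 5936 CPM) than in cluster 0 (2558 and 3743 CPM). The highest *Ptgds* levels were in clusters 3 and 10, with most *Opalin*, a myelin membrane gene. Cluster 3 had 6168 and 9443 CPM of *Ptgds*. Cluster 10 had 6610 and 9678 CPM.

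The order of the 5 clusters was the same in both libraries, and FMC_new was above C-ON in each. The intervals of clusters 3 and 10 overlapped in FMC_new. The ratio of the highest to the lowest cluster was 33.2 in C-ON and 25.4 in FMC_new (mean 29.3 ± 5.56, SD, n = 2). A ratio of 10 or more in both libraries was found for 1.13% of 8060 genes at 10 CPM or more, and *Ptgds* ranked 36 of these by its smaller ratio. The mean ratio was 141 with a mitochondrial limit of 10%, where 6 clusters were compared, and 44.4 with the prostaglandin genes allowed among the variable features.

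In cluster 3, 91.1% of cells of C-ON and 92.6% of cells of FMC_new had a *Ptgds* UMI, against 39.1% and 38.5% in cluster 0. The median cell of cluster 3 had *Ptgds* UMIs in both libraries, and that of cluster 0 had 0. Different clusters formed the class in the libraries, with cluster 0 making up 31.9% of oligodendrocyte-like cells in C-ON and 17.4% in FMC_new, and cluster 1 making up 16.5% and 46.2%. Over the 10 cluster by library sums, the genes most like *Ptgds* on the scale log2(CPM + 10) were *Usp2* (Pearson's r = 0.97), *Syp* (0.97) and *Phactr3* (0.97), points that share 2 libraries and were given after the values had been seen.

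**Figure D2:**
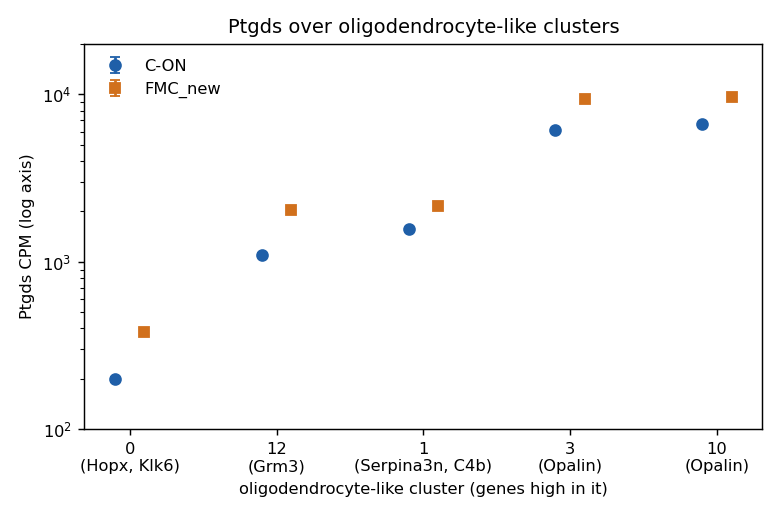
*Ptgds* CPM (log axis) in the 5 oligodendrocyte-like clusters of C-ON (circles) and FMC_new (squares), with 95% Poisson intervals that are mostly smaller than the symbols. Cluster 0 lies lowest at 199 and 382 CPM and clusters 3 and 10 highest in both libraries.

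*Hpgds* (chr6:65117293-65144908, minus strand) encodes the haematopoietic prostaglandin D2 synthase, a glutathione transferase of immune cells. Its level in microglia-like cells was 134 CPM (116 to 154) in C-ON and 152 CPM (145 to 160) in FMC_new. Border macrophage-like cells, named from *Mrc1*, *Pf4* and *Cd163*, followed with 84.6 CPM (72.0 to 98.7) and 81.1 CPM (73.3 to 89.5). B cell-like cells had 4 UMIs in C-ON (4.09 to 38.4 CPM) and 5.35 CPM in FMC_new, type 1 dendritic cell-like cells 9.99 and 10.3 CPM, and T cell-like cells 8.01 and 9.57 CPM, with overlapping intervals. Oligodendrocyte-like cells had 0.46 and 0.71 CPM. The synthases of prostaglandin D2 thus had their highest levels in different classes, although *Ptgds* transcripts were also counted in microglia-like and border macrophage-like cells.

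Mast cells are a known source of *Hpgds*. In all, 4 cells in each library had UMIs of at least 3 of the 7 mast cell markers, and these held 1 and 3 *Hpgds* UMIs. Their level was 75.7 CPM (1.92 to 422) in C-ON and 226 CPM (46.7 to 661) in FMC_new. These intervals include the microglia-like levels. Mast markers summed to 5273 CPM in ILC2-like cells of C-ON and 678 CPM in those of FMC_new, so a few mast-marker cells lay in that class. *Hpgds* there was 0 UMIs in 26 cells of C-ON and 6.92 CPM in 66 cells of FMC_new.

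*Ptgs1* (chr2:36230426-36252272, plus strand), the cyclooxygenase present without stimulation in many cells, had 281 CPM (255 to 310) in microglia-like cells of C-ON and 293 CPM (282 to 303) in those of FMC_new. Border macrophage-like cells had 93.6 CPM (80.3 to 108) and 109 CPM (99.8 to 118). The microglia-like level was 3.01 times that of the next class in C-ON and 2.69 times in FMC_new. Stromal-like cells came next with 10.4 and 14.2 CPM, and each other of the 14 classes compared had at most 6.92 CPM. Neutrophil-like cells, with too few cells in C-ON to be compared, had 41.9 CPM (24.8 to 66.2) in FMC_new. Microglia-like cells held 66.1% of all *Ptgs1* UMIs of C-ON and 78.5% of those of FMC_new.

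Of the microglia-like clusters, 1 stood highest in both *Ptgs1* and *Hpgds*. Cluster 9, with the homeostatic genes *P2ry12* and *Tmem119*, had 346 CPM (312 to 383) of *Ptgs1* in C-ON and 379 CPM (364 to 395) in FMC_new. Cluster 14 had 70.0 CPM (41.5 to 111) and 149 CPM (134 to 164), and cluster 15 had 99.4 CPM (45.4 to 189) and 180 CPM (158 to 206). Of *Hpgds*, cluster 9 had 157 and 196 CPM, cluster 14 had 62.2 and 85.9 CPM, and cluster 15 had 55.2 and 79.4 CPM. The level in cluster 9 was therefore the highest for both genes in both libraries, although for *Hpgds* the intervals of clusters 9 and 15 in C-ON came close (134 to 182 against 17.9 to 129). Clusters 14 and 15 were shallower, with medians of 2609 and 1706 UMIs in FMC_new against 6551 UMIs in cluster 9, and 33.4% of cells of cluster 14 were among the 5% with the highest doublet scores. Their part in the lower levels was not tested.

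In thinned microglia-like cells of C-ON, *Hpgds* was found in 21.6% of 51 cells with a *Ptgs1* UMI and in 8.21% of 195 cells without one. In FMC_new the shares were 16.5% of 381 and 11.4% of 1581 cells. Cells of clusters 9, 14 and 15, which differed in the level of both genes, were pooled, and shares within a cluster were not computed. The 95% Clopper-Pearson intervals overlapped in both libraries (11.3% to 35.3% against 4.76% to 12.98% in C-ON, and 12.9% to 20.7% against 9.86% to 13.1% in FMC_new), and the cells are not replicates.

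**Figure D3:**
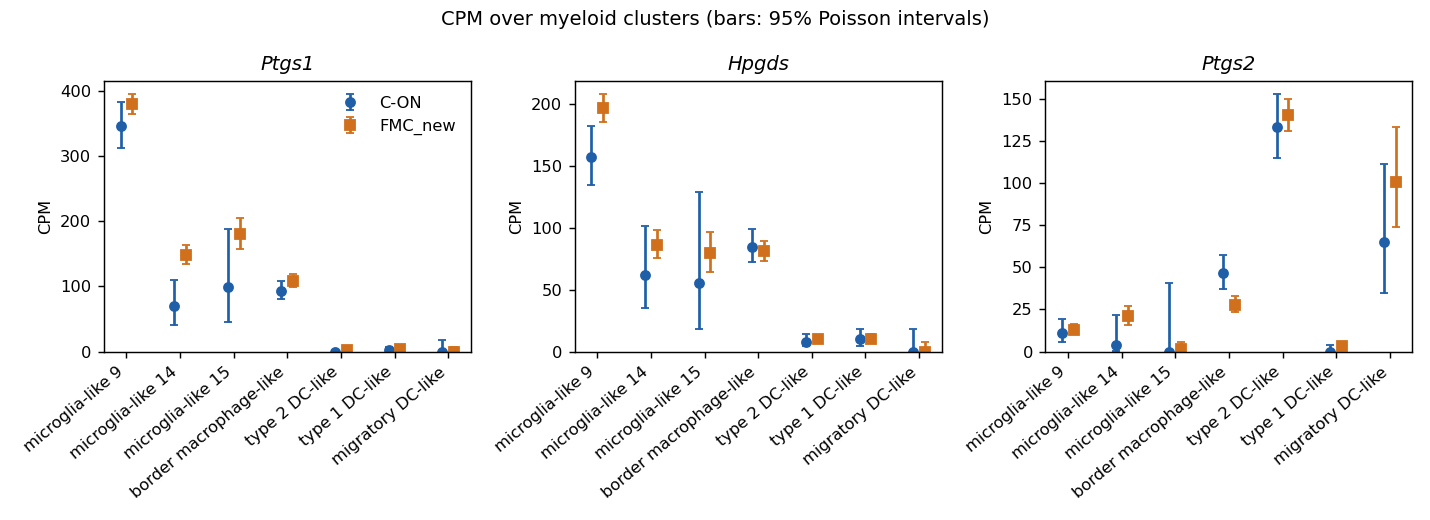
CPM of *Ptgs1*, *Hpgds* and *Ptgs2* in 7 myeloid clusters of C-ON (circles) and FMC_new (squares), with 95% Poisson intervals. *Ptgs1* and *Hpgds* are highest in microglia-like cluster 9, and *Ptgs2* is highest in type 2 dendritic cell-like cells.

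*Ptgs2* (chr1:150100031-150108227, plus strand), the inducible cyclooxygenase, had another pattern than *Ptgs1*. It was highest in type 2 dendritic cell-like cells, with 133 CPM (115 to 153) in C-ON and 140 CPM (131 to 150) in FMC_new. These cells carried *Cd209a*, *Clec10a* and *Mgl2*, and had 0 and 2.34 CPM of *Ptgs1*. Migratory dendritic cell-like cells, with *Ccr7*, followed with 65.1 CPM (34.7 to 111) and 101 CPM (74.2 to 133), and in FMC_new the intervals of these classes overlapped. Type 1 dendritic cell-like cells, by contrast, had 0 and 3.07 CPM.

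The level of *Ptgs2* in border macrophage-like cells was 46.5 CPM (37.3 to 57.3) in C-ON and 27.7 CPM (23.2 to 32.8) in FMC_new. Microglia-like cells had 9.01 and 13.7 CPM. In ILC2-like cells no UMI was found in 26 cells of C-ON, which allows up to 48.5 CPM by the exact Poisson interval, while 66 cells of FMC_new had 89.9 CPM (58.8 to 132) from 26 UMIs in 6 cells. As for *Ptgds*, few cells held most *Ptgs2* transcripts. Of type 2 dendritic cell-like cells, 28.6% of 203 and 26.0% of 859 had a *Ptgs2* UMI, and the 10% of cells with most UMIs held 70.2% and 72.5% of the class's UMIs. In T cell-like cells the share was 0.103% and 0.126%. After thinning it was 13.3% and 9.93% in type 2 dendritic cell-like cells (median depths 6961 and 7420 UMIs) and 0% and 0.0321% in T cell-like cells.

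*Ptges* (chr2:30889471-30929863, minus strand), the inducible microsomal prostaglandin E synthase, was highest in stromal-like cells. Its level there was 150 CPM (122 to 182) in C-ON and 154 CPM (139 to 171) in FMC_new. The next class was 11.4 and 11.3 times lower, ILC2-like cells in C-ON from 1 UMI and plasma cell-like cells in FMC_new. In contrast to *Ptgds*, the transcript was spread over many stromal cells, with a UMI in 45.7% and 41.6% of them and at most 5 and 6 UMIs in 1 cell. After thinning the share was 9.62% and 12.6%, against 0% in T cell-like cells (0.103% and 0.0315% before thinning), with median depths of 5497 and 3475.5 UMIs in stromal-like cells. The 10% of stromal-like cells with most UMIs held 40.6% and 44.6% of *Ptges* UMIs. Stromal-like cells without a carrier UMI had 152 and 159 CPM of *Ptges*, so that its level did not rest on the few cells high in *Ptgds*. *Ptges* was not found in type 1 or type 2 dendritic cell-like cells of either library. In the latter 0 UMIs allow up to 2.48 CPM in C-ON and 0.575 CPM in FMC_new.

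Plasma cell-like cells had 7.75 CPM (5.37 to 10.8) of *Ptges* in C-ON and 13.6 CPM (11.6 to 15.9) in FMC_new. These were unequal between their clusters. Cluster 27 had 26.7 CPM (14.2 to 45.7) and 35.5 CPM (28.7 to 43.5), while cluster 5 had 5.39 CPM (3.33 to 8.23) and 7.36 CPM (5.70 to 9.34). The intervals of the 2 plasma clusters did not overlap in either library.

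Of the receptors, *Ptger2* (chr14:44988195-45003820, plus strand) encodes EP2, which raises cyclic AMP on binding of prostaglandin E2. It was highest in T cell-like cells, with 35.0 CPM (29.2 to 41.5) in C-ON and 43.1 CPM (39.3 to 47.1) in FMC_new. Type 1 dendritic cell-like cells were next in C-ON with 12.0 CPM, and border macrophage-like cells in FMC_new with 12.0 CPM. In FMC_new these classes and NK cell-like cells at 10.5 CPM did not differ beyond their intervals.

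The T cell-like clusters differed in *Ptger2*. In cluster 6, high in the regulatory T cell genes *Foxp3* and *Ctla4*, its level was 64.4 CPM (46.8 to 86.5) in C-ON and 84.6 CPM (74.5 to 95.8) in FMC_new. In cluster 11, high in *Cd8a* and the checkpoint gene *Pdcd1*, it was 67.6 CPM (53.0 to 85.0) and 55.5 CPM (47.8 to 64.0). Cluster 2 had 5.07 CPM (2.32 to 9.63) and 7.04 CPM (4.72 to 10.1) of *Ptger2*. It was high in *Gzmk* (254 and 391 CPM), as was cluster 23 (223 and 411 CPM). The order of clusters 6 and 11 was not the same in both libraries, whereas both stood above cluster 2 without overlap. Cluster 23, high in *Themis* and *Lef1*, lay between them with 23.7 CPM (7.71 to 55.4) and 21.2 CPM (12.4 to 34.0), overlapping clusters 2, 6 and 11 in C-ON.

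*Ptger4* (chr15:5206661-5244187, minus strand) encodes EP4, the other cyclic AMP-raising receptor of prostaglandin E2. Migratory dendritic cell-like cells had 190 CPM (135 to 261) in C-ON and 143 CPM (111 to 181) in FMC_new. Type 2 dendritic cell-like cells had 181 CPM (160 to 204) and 112 CPM (104 to 120), and the intervals of these classes overlapped in both libraries. The dendritic classes with the highest *Ptgs2* levels thus also had the highest *Ptger4* levels. Border macrophage-like cells followed with 107 and 85.6 CPM, T cell-like cells with 71.0 and 63.6 CPM, and type 1 dendritic cell-like cells with 64.9 and 38.5 CPM. Microglia-like cells had 44.3 and 45.6 CPM. Oligodendrocyte-like cells had 0.93 and 1.35 CPM, and neuron-like cells had 0 UMIs.

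Over the T cell-like clusters *Ptger4* was ordered differently from *Ptger2*. Its level was highest in cluster 23, with 185 CPM (132 to 253) in C-ON and 169 CPM (141 to 200) in FMC_new. Clusters 6 and 2 had 87.8 and 71.0 CPM in C-ON and 65.5 and 59.0 CPM in FMC_new, with overlapping intervals. Cluster 11 was lowest with 38.0 CPM (27.2 to 51.5) and 42.8 CPM (36.1 to 50.3). In C-ON, 3.23% of 31 thinned T cell-like cells with a *Ptger2* UMI had a *Ptger4* UMI, against 7.01% of 913 without *Ptger2*. In FMC_new the shares were 5.69% of 123 and 6.55% of 2992 cells. The intervals overlapped in both libraries. Cells of clusters 2, 6, 11 and 23 were pooled here, and shares within a cluster were not computed.

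**Figure D4:**
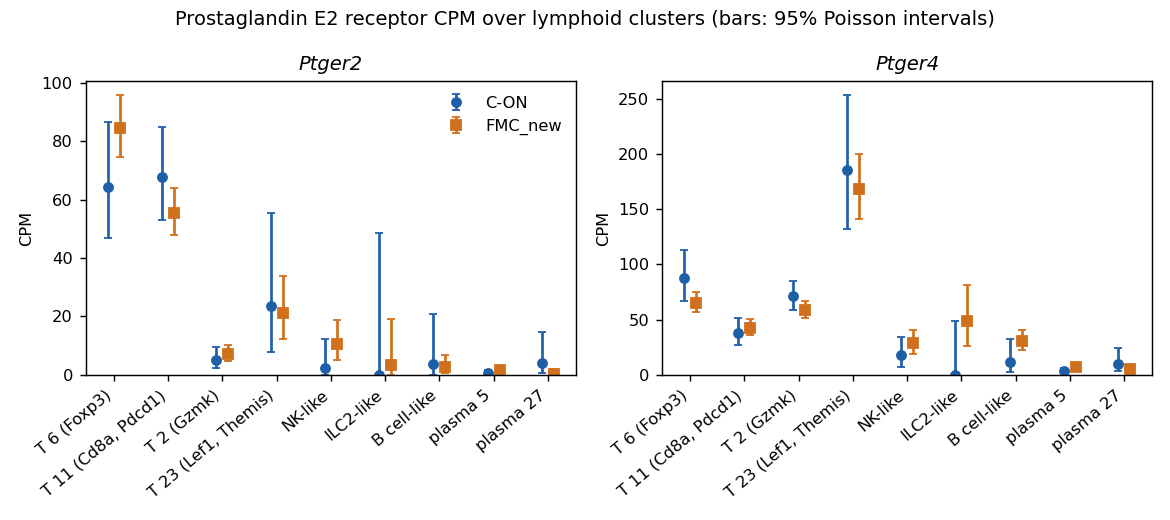
CPM of *Ptger2* and *Ptger4* in 9 lymphoid clusters of C-ON (circles) and FMC_new (squares), with 95% Poisson intervals. *Ptger2* is highest in T cell-like clusters 6 and 11, and *Ptger4* in cluster 23.

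*Ptgdr2* (chr19:10937160-10942511, plus strand) encodes the prostaglandin D2 receptor CRTH2 of type 2 lymphocytes and eosinophils. It was not detectable above single counts. The 4 UMIs of C-ON lay in microglia-like (2), border macrophage-like (1) and oligodendrocyte-like (1) cells, and 3 of the 5 of FMC_new in type 2 dendritic cell-like cells. In ILC2-like cells 0 UMIs in 26 and 66 cells allow up to 48.5 and 12.8 CPM. T cell-like cells had 0 UMIs in 968 and 3177 cells, which allows up to 0.98 and 0.33 CPM.

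In the count matrices, 3 receptors overlap a gene annotated on the other strand. *Ptger2* shares 246 exon bases with *Gm17173*, *Ptger4* shares 82 with *Ttc33*, and *Ptgdr2* shares 1031 with *Ccdc86*. Whether strand was used in counting is not given in the sources used here. Whether the overlaps changed any count was not tested. *Gm17173* was also the gene most like *Ptger2* over 28 class by library sums (Pearson's r = 0.89 on the scale log2(CPM + 10)).

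By the same measure, the genes nearest to *Ptgs1* were *Slco2b1* (r = 0.98), *Csf3r* (0.98) and *Fblim1* (0.97), and those nearest to *Hpgds* were *Slc11a1* (0.95), *Fcgr4* (0.94) and *Acod1* (0.94). *Ptgs2* was most like *Plxnd1* (0.94), *Cxcl2* (0.86) and *Mcemp1* (0.82). *Ptges* was most like *Rarres1* (0.95), *Bmp6* (0.95) and *Prrx2* (0.94). *Ptger4* was most like *Bcl2a1b* (0.94), *Bcl2a1d* (0.92) and *Zfp217* (0.91), of which the first pair are near-identical copies. *Ptger2* was next most like *Gm44174* (0.86) and *Trbv1* (0.85). For *Ptgds* the highest value was the lowest among the 7 genes, with *Gng11* (0.85), *Lap3* (0.83) and *Elovl1* (0.83). These are descriptions over points that share 2 libraries, among 14589 genes.

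Of 24 other genes of the pathway, 23 were in the files and 19 reached 10 CPM in a class in both libraries. Among the 15 of these 23 with at least 50 UMIs in each library, the leading class was the same in both for 13 and separated for 3, against the 58.7% and 20.2% of all genes. Upstream of the cyclooxygenases, *Pla2g4a*, the phospholipase that frees arachidonic acid, was highest in oligodendrocyte-like cells with 79.0 CPM in C-ON and 63.5 CPM in FMC_new. Beside *Ptgs1* and *Hpgds*, microglia-like cells led in thromboxane synthase *Tbxas1*, with 199 and 229 CPM. Beside *Ptges*, stromal-like cells led in prostacyclin synthase *Ptgis* (81.5 and 85.5 CPM), in *Ptgdr* (59.3 and 63.1 CPM), the DP1 receptor of prostaglandin D2, and in *Abcc4* (74.1 and 101 CPM), which exports prostaglandins. *Hpgd*, whose product inactivates prostaglandins, was highest in border macrophage-like cells with 215 and 113 CPM. The prostacyclin receptor gene *Ptgir* was highest in ILC2-like cells with 78.9 and 48.4 CPM, and the thromboxane receptor gene *Tbxa2r* in T cell-like cells with 17.9 and 15.2 CPM. *Ptgdr* and *Ptgir* had fewer than 50 UMIs in a library. For *Pla2g4a*, *Tbxas1*, *Hpgd* and *Tbxa2r* the leading class did not stand apart from the next one in both libraries, whereas for *Ptges3*, *Ptgis* and *Abcc4* it did. *Ptges3*, a co-chaperone with prostaglandin E synthase activity, was highest in oligodendrocyte-like cells with 264 and 311 CPM.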

How the data were processed

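Both libraries were made with the 10x Genomics 5′ kit from pooled Nf1-OPG optic nerves after removal of debris and myelin. The authors made the deposited UMI counts with Cell Ranger 7.2.0 on mm10, per the labels and the file headers, and deposited them as whole numbers without normalization.

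Cells with 500 to 5000 genes, 500 to 20000 UMIs and at most 5% mitochondrial UMIs were kept. Seurat 5.3.0 (R 4.3.3) was used for log normalization, 2000 variable features without the prostaglandin genes, CCA integration, 30 components and a resolution of 0.8. Clusters were named from marker lists (at least 3 markers in 20% of cells and at 2 times the mean of clusters), a rule adjusted after the leading genes had been seen. The members and lists were chosen with earlier results of these data known. Genes were named by role, and as nearest genes the 3 with the highest correlation per member.

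UMIs were summed per class and library (Python 3.11.15, scipy 1.17.1). With 2 libraries of 1 condition a paired exact test cannot give a p below 0.5, so none was run. The leading-class step was tested on simulated Poisson counts only. These had no free RNA, no uneven spread over cells and no difference between libraries, so the step was not tested under such conditions. Scrublet (scanpy 1.11.5) called 1 of 8834 and 0 of 16818 cells as doublets. Its calls were taken as not having worked, so no doublets were removed. The shares of cells with the highest doublet scores rest on the scores of the same run. Whether these scores mark doublets was not tested. Alternatives changed the normalization, resolution, variable features, mitochondrial limit, scaling, depth, class size and libraries. Gene positions are from GENCODE M21 (GRCm38), and all 8 promoters were matched by symbol in RefSeq. Total UMIs per library were 85101211 and 129113325, and intervals cover counting error only.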

Additional observations from a re-analysis of the deposited data

Results flagged for a closer look

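Some classes had fewer than 20 cells in C-ON or stayed unnamed, and were in no comparison. In FMC_new, 6 values in such clusters were 10 or more times the level of T cell-like cells of that library, with at least 20 UMIs and no overlap of the Poisson intervals. In pituitary endocrine-like cluster 24, led by *Gh*, *Pou1f1* and *Ghrhr*, *Ptges* was 40.5 CPM (34.4 to 47.3) with a UMI in 27.8% of 353 cells, against 0.35 CPM in T cell-like cells. In pituitary endocrine-like cluster 18, which carried *Pomc* and *Tbx19*, *Ptges* was 7.18 CPM (5.13 to 9.78). *Ptgs2* was 34.9 CPM (26.8 to 44.8) in pituitary endocrine-like cluster 29, where 9 of 227 cells held its 62 UMIs, and 30.4 CPM (21.8 to 41.2) in cluster 19, against 1.86 CPM in T cell-like cells. Neutrophil-like cells (cluster 31) had 53.5 CPM (33.9 to 80.3) of *Ptgs2* in 11 of 130 cells. *Ptgds* was 2188 CPM (2115 to 2263) in the unnamed cluster 20, which carried oligodendrocyte and T cell markers, had a median of 1482 UMIs and held 35% of its cells among those with the highest doublet scores. C-ON held 19 pituitary endocrine-like and 3 neutrophil-like cells, so the pituitary and neutrophil values rest on FMC_new alone. In C-ON, 50 cells of cluster 20 had 456 CPM of *Ptgds*. The limits of 10 times and 20 UMIs were chosen after the values had been seen.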

How the results depend on the processing

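No paired analysis was possible because both libraries belong to 1 group. The count of genes with a separated leading class (4 of 7) was 2 with cells thinned to 1000 UMIs and 7 at a resolution of 0.4. Thinning left fewer UMIs against the same limit of 50 UMIs. Under the other alternatives the count lay between 4 and 6, and without each library in turn it was 5 and 6. The share of all genes was computed for the main setting only. The mean *Ptgds* level in oligodendrocyte-like cells (2772 CPM) was 3496 CPM as the mean over cells and 3473 CPM with thinned cells, and 2380 to 3164 CPM without each library. The range of *Ptgds* over oligodendrocyte-like clusters (29.3-fold) was 41.3-fold with SCTransform, 35.9-fold at a resolution of 0.4, 44.4-fold with the prostaglandin genes among the variable features and 141-fold with a mitochondrial limit of 10%, where 6 clusters were compared, and 25.4 to 33.2-fold without each library; the cause of these changes was not tested. Of the 12 alternatives that kept both libraries, the one without a minimum of UMIs per gene gave no level of a single gene. The others gave 64 levels of single genes in their leading class. Of these, 43 moved by less than the SD of the libraries and 21 moved by more. All lay between 0.764 and 1.22 times the value reported. Leaving out the 5% of cells with the highest doublet scores, the shared barcodes or the stromal-like cells with a carrier UMI was added after seeing the data. With a minimum of 50 cells, and at a resolution of 0.4, no level of *Ptger4* in migratory dendritic cell-like cells could be given. Scrublet's own calls were not run as an alternative, since they marked 1 cell. Depth limits *Ptgdr2*, and *Ptgs2* and *Hpgds* in ILC2-like cells of C-ON.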

Other observations

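Astrocyte-like cells numbered 19 in C-ON and 211 in FMC_new and were in no comparison. *Ptgds* was 331 CPM (293 to 372) in those of FMC_new and 6839 CPM in the 19 cells of C-ON, where 7 of the cells held its 449 UMIs. The unnamed cluster 13, with oligodendrocyte markers but led by the hormone genes *Prl* and *Gh*, had 2575 CPM of *Ptgds* in C-ON and 435 CPM in FMC_new. Between the tumor-like clusters, *Ptgds* was 94.8 and 75.7 CPM in cluster 8, which was led by *Cspg5* and *Pdgfra*. It was 463 and 863 CPM in cluster 21, which was led by *Gpr17*. The gene *Neu4* was among the leading genes of both clusters. Of cells of cluster 21, 30.8% were among those with the highest doublet scores.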
